A study of Mus musculus with 24 samples.

Results

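Phase II enzymes couple a polar group to drugs, odorants, hormones and their oxidised products. Their RNA was followed across sorted cells and whole olfactory mucosa of adult mice, on 24 Illumina bead arrays in 8 groups of 3. Members were all genes on the array whose annotated symbol starts with Gsta, Gstm, Gstp, Gstt, Gsto, Gstk, Gstz or Mgst (glutathione S-transferases), Ugt1a, Ugt2a or Ugt2b (UDP-glucuronosyltransferases), or Sult1 to Sult5 (sulfotransferases). The rule took 58 of 19057 annotated genes, with 94 of 45281 probes. Of these, 34 were tested on the 21 mucosa arrays, since a gene entered only if a probe had a detection p under 0.01 on at least 3 arrays. The 34 were 19 of 22 glutathione transferases with a Gst symbol, 3 of 3 microsomal ones (Mgst), 6 of 18 glucuronosyltransferases and 6 of 15 sulfotransferases.

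Glutathione transferases join glutathione to electrophiles. Glucuronosyltransferases sit in the endoplasmic reticulum and add glucuronic acid from UDP-glucuronic acid. Cytosolic sulfotransferases add sulfate from the donor PAPS. In the olfactory epithelium these reactions follow oxidation by cytochrome P450 enzymes and take part in the clearance of odorants and inhaled toxicants, and the supporting (sustentacular) cells are known for such metabolism.

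All mucosa groups came from mice 8 to 12 weeks old, and each replicate pooled 2 to 7 mice. Sustentacular cells (Sus) were the high-GFP cells negative for CD54 from heterozygotes of a cross of ∆Sox2-GFP with FVB/NJ. Globose basal cells (Sox2GBC), the neurogenic progenitors, were the low-GFP cells of the same cross, negative for Ecad and CD54 and with low forward and side scatter. Immediate precursors and young neurons (Neurog1-Ctrl) were GFP-positive cells of a Neurog1-GFP by FVB/NJ cross. Mature neurons (OMP) were GFP-positive cells of a ∆OMP-GFP by CD-1 cross. In Neurog1-OBX and OMP-OBX the same reporters were sorted from the lesioned side 3 weeks after removal of 1 olfactory bulb. The whole mucosa (OM) was all live cells of wild-type F1 hybrids of 129S1/SvImJ and C57BL/6J. The mREF group was technical repeats of a commercial RNA pooled from 11 mouse cell lines. Mouse line and cell stage therefore cannot be told apart in comparisons between sorts, except in Sus against Sox2GBC. Each bulbectomy comparison with its own control is also within 1 line. The difference between the 2 bulbectomy effects, and every comparison of a sort with OM, sets different lines against each other. A GFP gate follows the reporter and not the cell type as such.

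The share of probes detected ran from 33.9% to 48.3% over the arrays. Within groups, arrays correlated across genes, not independent of each other, with r between 0.944 and 0.991. The summed linear signal of 7 sustentacular markers was 195844 to 217229 in Sus, 85135 to 133785 in Sox2GBC, 35994 to 62678 in Neurog1-Ctrl, 61463 to 107557 in OMP and 99961 to 176526 in OM, and all 7 were detected on all 3 arrays of each of the 7 mucosa groups. That of 8 mature neuron markers was 23862 to 27726 in Sus, 68390 to 87580 in Sox2GBC, 96747 to 101793 in Neurog1-Ctrl, 159188 to 172076 in OMP and 117434 to 141528 in OM. Of 6 measured markers of globose basal cells and precursors, 5 were detected on all 3 Sox2GBC arrays and Neurog1 on none. Against their label, Kit averaged 10.45 in Sus and 8.93 in Sox2GBC (difference 1.51, adjusted p = 0.00701, limma) and Top2a, a gene of dividing cells, 10.01 in Sus and 8.22 in Sox2GBC (1.78, adjusted p = 0.0125), while Insm1 was lower in Sus (-2.14) and the other 3 were not called. In Sus against Sox2GBC 6 of 9 Bowman gland markers were lower and 1 higher, with sums of 14920 to 16036 in Sus and 37108 to 43545 in Sox2GBC. All 6 immature neuron markers were lower as well, with sums of 3148 to 14797 in Sus and 50718 to 61713 in Sox2GBC. These markers move with most of the member differences given below, and their part in those results was not tested. In such samples fewer cells of a type and less RNA per cell cannot be told apart. Levels are log2 intensities after background correction and quantile normalization. Differences are followed by their standard error and the Benjamini-Hochberg adjusted p of limma over 11870 genes, and a gene is called where that p is under 0.05. With pooled mice, p-values measure the spread between such pools.

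In Sus cells most of the tested glutathione transferases and both Ugt2a1 and Ugt2b36 were higher than in Sox2GBC cells, while Sult1d1, Sult4a1 and Mgst3 were lower. Of the 34 tested members, 17 were higher (23.1% of all genes tested), 5 lower (28.8% of all genes) and 12 not called, with a median difference of 0.73 against -0.12 over all genes. Against Neurog1-Ctrl, 23 members were higher (26% of all genes) and 4 lower (33.4%), with a median of 1.76 against -0.15. Against OMP, 23 were higher (29.1%) and 4 lower (30.9%), with a median of 1.99 against -0.02. The 3 comparisons share the Sus arrays. In all 3 together, 17 of 34 members were higher (50%, against 16.7% of all genes) and 4 lower (11.8%, against 17.5%). The 17 were Gsta1, Gsta2, Gsta3, Gsta4, Gstm1, Gstm2, Gstm4, Gstm6, Gstp1, Gstp2, Gstt1, Gstt3, Mgst1, Sult1a1, Sult1e1, Ugt2a1 and Ugt2b36, and the 4 were Gsto2, Mgst3, Sult1d1 and Sult4a1. Gstp2 and Sult1e1 passed the filter only through the Sus arrays, and Sult5a1, Ugt1a6a and Ugt1a6b only through the OM arrays, so that a difference in these 5 is built into their selection. Among the 18 members whose mean level lay above the median of all tested genes (8.17), a restriction chosen after the data were seen, 10 were higher and 3 lower in Sus than in Sox2GBC, against 22.6% and 36.4% of 5935 such genes. In the same 18, 14 were higher and 3 lower than in Neurog1-Ctrl (24.6% and 39.3% of such genes), and 13 higher and 3 lower than in OMP (28.4% and 36.5%).

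**Figure D1:**
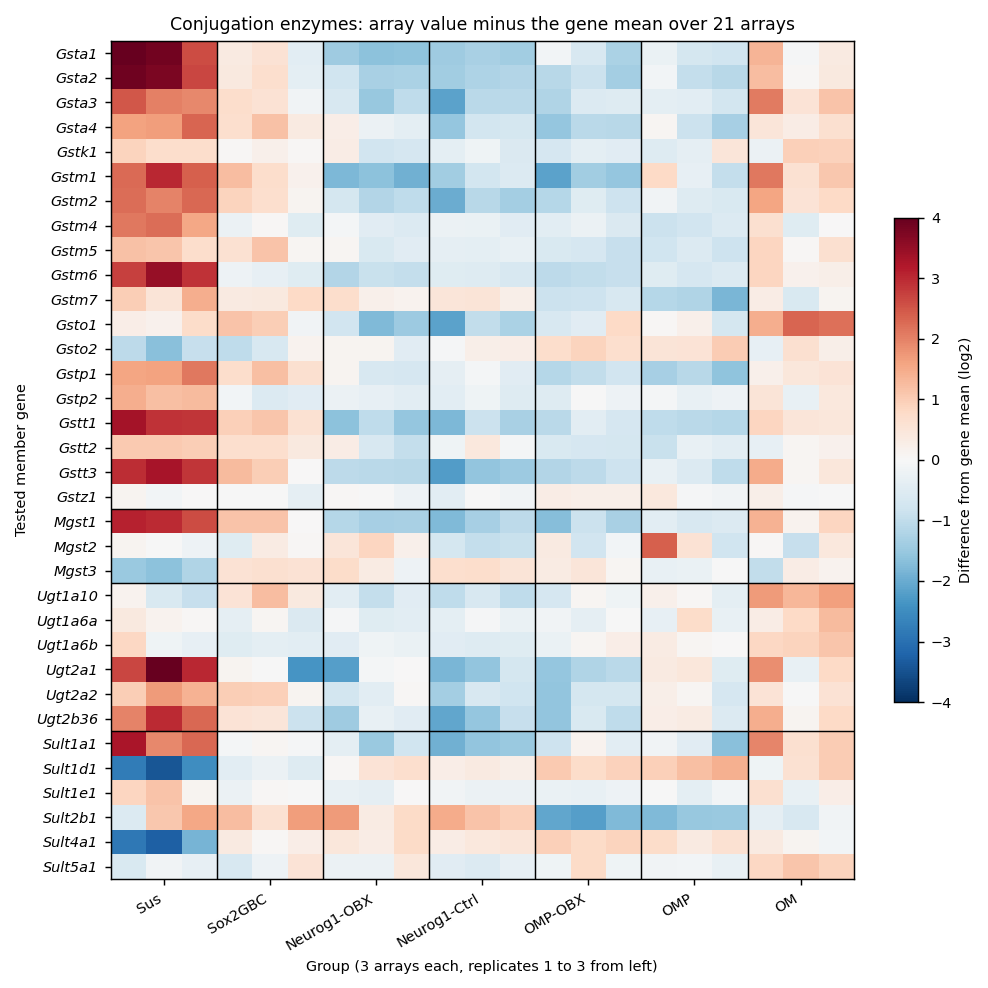
Log2 level of each of the 34 tested members on each of the 21 mucosa arrays, as the difference from that gene's mean over the arrays, with arrays in columns by group, genes in rows by family and colours that end at -4 and 4. The Sus columns hold the highest group mean among the 5 unlesioned groups for 22 of the 34 genes, and Sox2GBC for 0. Gstp2 and Sult1e1, among the 22, passed the filter only through Sus.

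The highest group mean among the 5 unlesioned groups was in Sus for 22 members, in OMP for 5, in OM for 5, in Neurog1-Ctrl for 2 and in Sox2GBC for 0. Over all genes these shares were 30.4% for Sus, 26.9% for OMP, 6.28% for OM, 19.2% for Neurog1-Ctrl and 17.2% for Sox2GBC. Sult5a1, Ugt1a6a and Ugt1a6b, counted for OM, and Gstp2 and Sult1e1, counted for Sus, passed the filter only through that group. Their place in these counts is built into the selection.

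The region around the start site is shown for 4 genes that bear on this pattern. Ugt2a1 (odorant glucuronidation in olfactory tissue) and Sult1d1 (sulfation of catecholamines in the mouse) lie in 1 gene cluster and differed in opposite directions in Sus, and Gsta3 and Mgst1 were higher there. Windows run from 250 bases before to 50 bases after the start, 5′ to 3′ on the gene's strand, from RefSeq on GRCm38.p6. Capitals mark a match, on either strand, to the antioxidant response element TGACNNNGC in Gsta3 and Mgst1 or to the xenobiotic response element TNGCGTG in Sult1d1. The Ugt2a1 window holds neither. Mgst1 has another window without a match, which is not shown.

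Gsta3, chr1:21240335-21240634, plus strand: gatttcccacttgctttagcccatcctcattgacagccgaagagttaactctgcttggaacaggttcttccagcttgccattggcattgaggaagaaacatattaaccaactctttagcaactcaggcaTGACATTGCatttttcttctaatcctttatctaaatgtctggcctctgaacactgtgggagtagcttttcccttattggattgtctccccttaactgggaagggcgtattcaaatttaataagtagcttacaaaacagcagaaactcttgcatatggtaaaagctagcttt
Mgst1, chr6:138140277-138140576, plus strand: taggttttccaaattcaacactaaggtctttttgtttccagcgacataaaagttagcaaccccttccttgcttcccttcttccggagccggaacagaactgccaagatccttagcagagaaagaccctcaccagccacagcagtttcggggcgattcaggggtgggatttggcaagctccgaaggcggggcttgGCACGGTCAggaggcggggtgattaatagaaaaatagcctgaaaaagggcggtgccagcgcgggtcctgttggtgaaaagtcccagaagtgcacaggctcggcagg
Ugt2a1, chr5:87490822-87491121, minus strand: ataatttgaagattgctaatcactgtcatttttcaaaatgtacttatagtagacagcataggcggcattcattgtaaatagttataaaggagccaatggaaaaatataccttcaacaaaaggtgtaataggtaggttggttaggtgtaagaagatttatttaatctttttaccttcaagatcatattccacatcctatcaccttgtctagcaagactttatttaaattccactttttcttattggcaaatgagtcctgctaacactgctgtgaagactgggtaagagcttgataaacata
Sult1d1, chr5:87568957-87569256, minus strand: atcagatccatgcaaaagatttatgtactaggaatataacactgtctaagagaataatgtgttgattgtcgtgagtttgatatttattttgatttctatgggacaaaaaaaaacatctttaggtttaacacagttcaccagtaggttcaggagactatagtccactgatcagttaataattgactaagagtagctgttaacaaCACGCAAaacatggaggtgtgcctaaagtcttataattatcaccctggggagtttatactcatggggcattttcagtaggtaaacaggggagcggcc

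The match begins at base -121 from the start in Gsta3, at -56 in Mgst1 and at -47 in Sult1d1. RefSeq windows were found for 52 of the 58 members. The antioxidant element was present in 4 of them (7.69%; Gsta3, Gstm5, Gstm7 and Mgst1), against 14.0% of 27025 genes with a window. The xenobiotic element was present in 3 (5.77%; Gsta2, Sult1d1 and Ugt1a5), against 5.84%. A gene with several windows was counted where any of them held a match. Of the 16 members with a window that were higher in Sus than in all 3 sorts, 2 held the antioxidant element (12.5%). These 2, Gsta3 and Mgst1, are among the 4 genes shown, so the windows shown are not typical of the members. A match describes letters and is not a binding site.

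All 4 alpha-class transferases were higher in Sus than in Sox2GBC, by 1.13 to 3.34. This class conjugates a wide range of electrophiles and reduces lipid peroxides. Gsta1 was at 10.34, 10.19 and 8.94 on the 3 Sus arrays, against 6.67, 6.89 and 5.89 in Sox2GBC, 4.91, 5.02 and 4.92 in Neurog1-Ctrl, 6.07, 5.61 and 5.54 in OMP and 7.69, 6.27 and 6.67 in OM. Every Sus array was above every array of the other groups. The difference from Sox2GBC was 3.34 ± 0.38 (adjusted p = 7.75e-07, limma), or 10.1-fold, and a dimmer Gsta1 probe gave 1.65. Gsta1 was not detected in Neurog1-Ctrl, so Sus was at least 15.2-fold higher than that group. Gsta2 was at 9.89, 9.78 and 8.68 in Sus, against 6.41, 6.68 and 5.62 in Sox2GBC and 7.24, 6.04 and 6.39 in OM, again without overlap. Its difference from Sox2GBC was 3.21 ± 0.35 (limma adjusted p = 5.47e-07). Gsta1 and Gsta2 are close relatives, and the array may not tell them apart, since probe sequences were not used here. Gsta3 and Gsta4, the second known for conjugating the lipid peroxidation product hydroxynonenal, averaged 13.41 ± 0.29 and 11.71 ± 0.39 in Sus (SD, n = 3), against 11.63 ± 0.46 and 10.57 ± 0.39 in Sox2GBC.

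Of the 6 tested mu-class transferases, 4 were higher in Sus than in Sox2GBC and 2, Gstm5 (0.37) and Gstm7 (0.47), were not called. Gstm2 was at 15.1, 14.87 and 15.16 in Sus, against 13.75, 13.54 and 12.98 in Sox2GBC, 10.89, 11.76 and 11.53 in Neurog1-Ctrl, 12.72, 12.36 and 12.25 in OMP and 14.44, 13.43 and 13.68 in OM. The Sus arrays were the highest throughout, close to the top of the scale at 15.53, and the Sox2GBC and OM arrays overlapped each other. The Sus difference was 1.62 ± 0.28 from Sox2GBC (limma adjusted p = 7.06e-05), 3.65 ± 0.28 from Neurog1-Ctrl (adjusted p = 2.45e-09) and 2.6 ± 0.28 from OMP (adjusted p = 1.37e-07). The other Gstm2 probes gave 2.28 and 1.58 against Sox2GBC. Gstm6 was at 10.44, 11.2 and 10.62 in Sus, against 7.5, 7.4 and 7.22 in Sox2GBC, 7.24, 7.19 and 7.07 in Neurog1-Ctrl, 7.22, 7.04 and 7.18 in OMP and 8.57, 7.9 and 7.95 in OM. The 3 sorts other than Sus lay within a narrow band, with OM between them and Sus. The difference from Sox2GBC was 3.38 ± 0.2 (limma adjusted p = 3.22e-09), or 10.4-fold, with 2.13 and 1.72 by the other probes. Gstm4 was 2.19 higher and Gstm1 1.86 higher in Sus than in Sox2GBC.

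Both tested pi-class genes were called higher in Sus. Gstp1 averaged 11.45 ± 0.3 in Sus and 10.53 ± 0.32 in Sox2GBC, a difference of 0.92 (limma adjusted p = 0.00263), and another of its probes gave 0.19. Gstp2 was not detected in Sox2GBC and at least 1.32-fold higher in Sus. It passed the filter only through the Sus arrays, so a higher value there is built into its selection. Of the theta class, Gstt3 was at 12.72, 13.07 and 12.62 in Sus, against 11.04, 10.75 and 9.79 in Sox2GBC, 7.54, 8.2 and 8.33 in Neurog1-Ctrl, 9.46, 9.22 and 8.76 in OMP and 11.26, 9.86 and 10.24 in OM. The 4 sorts did not overlap with each other. Gstt3 was 2.28 ± 0.33 higher in Sus than in Sox2GBC (limma adjusted p = 1.11e-05), and Gstt1, which conjugates small halogenated molecules, was 2.14 ± 0.24 higher (adjusted p = 8.2e-07). Gstt2 was not called (0.44), although another of its probes gave 1.78.

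The omega, kappa and zeta classes had no gene called higher in Sus than in Sox2GBC. Gsto1, an omega-class enzyme with glutathione-dependent reductase activity, averaged 8.95 ± 0.29 in Sus and 9.21 ± 0.7 in Sox2GBC and was not called. Gsto2 was lower in Sus by -0.71 ± 0.29 (limma adjusted p = 0.0458), with overlapping arrays and -0.3 by another probe, and its call ended under many of the alternative settings. Gstk1, the kappa-class enzyme of mitochondria and peroxisomes, differed by 0.67 from Sox2GBC (limma adjusted p = 0.0833). It was called higher in Sus than in Neurog1-Ctrl (1.15) and in OMP (0.9), calls that median scaling ended. Gstz1, which isomerises maleylacetoacetate in tyrosine breakdown, was called in none of the comparisons within the mucosa, and its group means lay between 10.53 and 10.97.

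The microsomal enzymes split. Mgst1, a membrane-bound transferase and peroxidase, was at 13.63, 13.53 and 13.15 in Sus, against 11.68, 11.69 and 10.56 in Sox2GBC, 8.76, 9.2 and 9.48 in Neurog1-Ctrl, 10.13, 9.91 and 9.98 in OMP and 11.94, 10.67 and 11.41 in OM. Sus arrays were above all others, and Neurog1-Ctrl arrays below all other unlesioned ones. The difference from Sox2GBC was 2.13 ± 0.32 (limma adjusted p = 1.54e-05), with 2.9 by another probe. Mgst3 was at 12.06, 11.92 and 12.35 in Sus, against 14.13, 14.2 and 14.14 in Sox2GBC, 14.23, 14.26 and 14.07 in Neurog1-Ctrl, 13.26, 13.28 and 13.53 in OMP and 12.58, 13.86 and 13.7 in OM. Its Sus arrays were the lowest, and Sox2GBC and Neurog1-Ctrl arrays overlapped. The difference from Sox2GBC was -2.05 ± 0.27 (limma adjusted p = 3.59e-06), with -1.61 by another probe. Mgst2, which can make leukotriene C, averaged 6.05 ± 0.17 in Sus and 6.05 ± 0.42 in Sox2GBC.

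**Figure D2:**
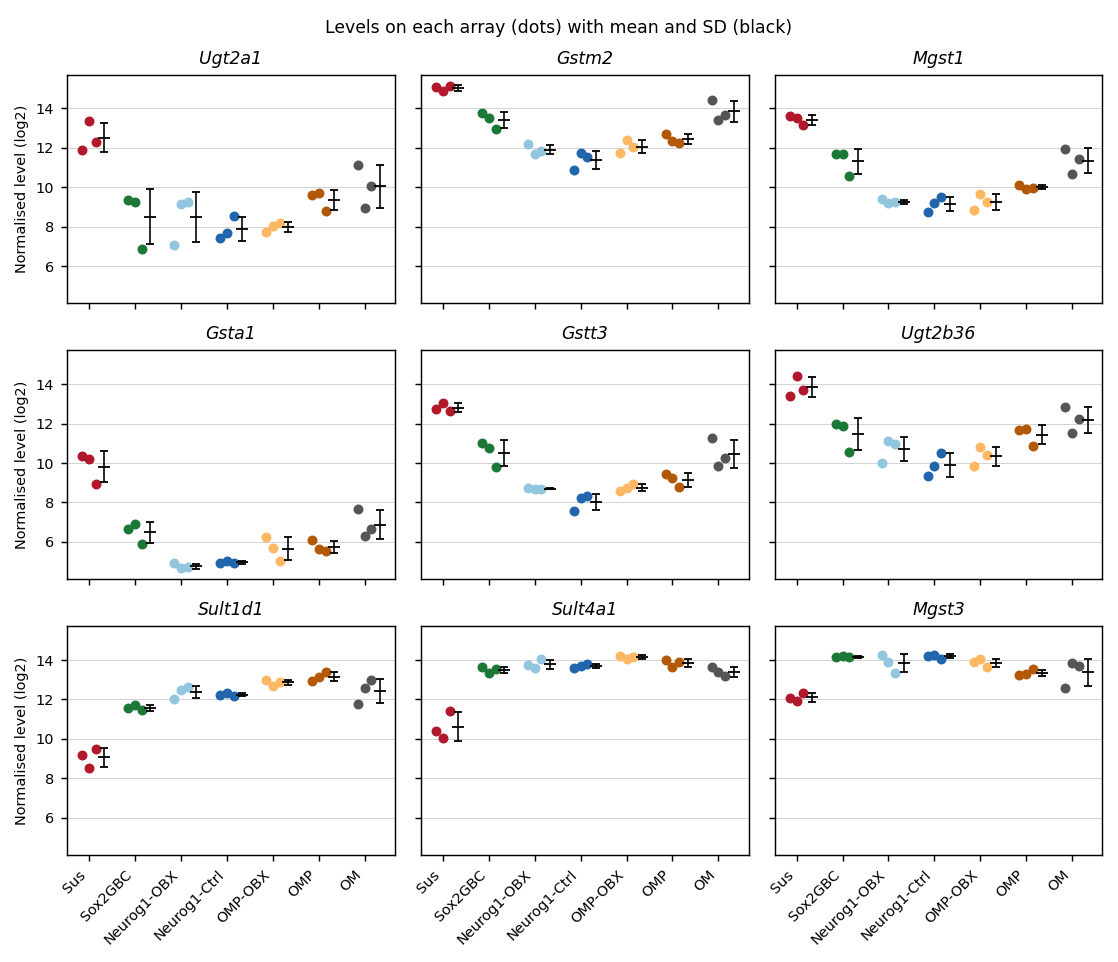
Log2 level on each array (dots), with group mean and SD (black), of 9 members in the 7 mucosa groups. Gstm2 averages 15.04 in Sus and 13.42 in Sox2GBC, while Sult1d1 averages 9.06 in Sus and 11.58 in Sox2GBC.

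Of the 3 tested Ugt2 genes, 2 were higher in Sus than in Sox2GBC. Ugt2a1 was at 11.91, 13.34 and 12.28 in Sus, against 9.37, 9.24 and 6.89 in Sox2GBC, 7.41, 7.69 and 8.55 in Neurog1-Ctrl, 9.6, 9.7 and 8.78 in OMP and 11.12, 8.95 and 10.06 in OM. Each Sus array was above every other, and Sox2GBC replicate 3 was the lowest of the unlesioned arrays. The difference from Sox2GBC was 4.01 ± 0.66 (limma adjusted p = 4.09e-05), or 16.1-fold, the largest among the members, with 4.6 by the other probe. Ugt2b36 was at 13.4, 14.4 and 13.72 in Sus, against 11.97, 11.89 and 10.55 in Sox2GBC, 9.33, 9.87 and 10.5 in Neurog1-Ctrl, 11.68, 11.73 and 10.87 in OMP and 12.85, 11.52 and 12.22 in OM. Sus was again highest without overlap, by 2.37 ± 0.44 over Sox2GBC (limma adjusted p = 0.000148). Ugt2a2, which shares exons with Ugt2a1, averaged 14.24 ± 0.35 in Sus and 13.56 ± 0.5 in Sox2GBC and was not called (0.68, adjusted p = 0.0849).

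The Ugt1a locus makes several enzymes by joining different first exons to shared ones, so its probes may not be specific to 1 enzyme. Ugt1a10 was at 8.03, 7.27 and 6.95 in Sus, against 8.42, 9.11 and 8.29 in Sox2GBC, 6.88, 7.26 and 6.86 in Neurog1-Ctrl, 8.08, 7.94 and 7.51 in OMP and 9.6, 9.2 and 9.52 in OM. OM arrays were the highest and Sus arrays overlapped with those of Neurog1-Ctrl and OMP. Sus was lower than Sox2GBC by -1.19 ± 0.28 (limma adjusted p = 0.00155), with -0.99 and -1.25 by the other probes. Ugt1a6a and Ugt1a6b were not called against Sox2GBC.

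The sulfotransferases went both ways. Sult1d1 was at 9.17, 8.53 and 9.48 in Sus, against 11.55, 11.73 and 11.44 in Sox2GBC, 12.21, 12.33 and 12.18 in Neurog1-Ctrl, 12.92, 13.15 and 13.38 in OMP and 11.79, 12.57 and 12.97 in OM. Sus arrays were the lowest, and Sox2GBC, Neurog1-Ctrl and OMP arrays followed in that order without overlap. The Sus difference was -2.51 ± 0.27 from Sox2GBC (limma adjusted p = 3.63e-07) and -4.09 ± 0.27 from OMP (adjusted p = 2.43e-10), or 17-fold lower. A dim second Sult1d1 probe, detected on 4 arrays, gave 0.05 against Sox2GBC and -0.12 against OMP. Sult4a1, a sulfotransferase known from brain with no settled substrate, was at 10.42, 10.02 and 11.43 in Sus, against 13.63, 13.32 and 13.55 in Sox2GBC, 13.59, 13.69 and 13.78 in Neurog1-Ctrl, 14.01, 13.63 and 13.88 in OMP and 13.63, 13.38 and 13.17 in OM. The Sus arrays lay below all of these, by -2.87 ± 0.25 from Sox2GBC (limma adjusted p = 6.44e-08), and a dim second probe detected on 3 arrays gave -0.01.

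Sult1a1, the phenol sulfotransferase, was at 9.71, 8.35 and 8.73 in Sus, against 6.34, 6.5 and 6.39 in Sox2GBC, 4.5, 4.87 and 4.95 in Neurog1-Ctrl, 6.28, 5.99 and 4.75 in OMP and 8.4, 7.08 and 7.46 in OM. Sus arrays were above those of the other sorts and overlapped with OM. The difference from Sox2GBC was 2.52 ± 0.41 (limma adjusted p = 4.06e-05). Sult1a1 was not detected in Neurog1-Ctrl, and Sus was at least 8.19-fold higher. Sult1e1, the estrogen sulfotransferase, was detected on 2 Sus arrays and on 0 Sox2GBC arrays, so it has no fold. Its call as higher in Sus (limma adjusted p = 0.0113) was lost without Sus replicate 2 (adjusted p = 0.0795). Sult1e1 passed the filter only through the Sus arrays, so a higher value there is built into its selection. Sult2b1, which sulfates cholesterol and pregnenolone, was not called (-0.48).

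**Figure D3:**
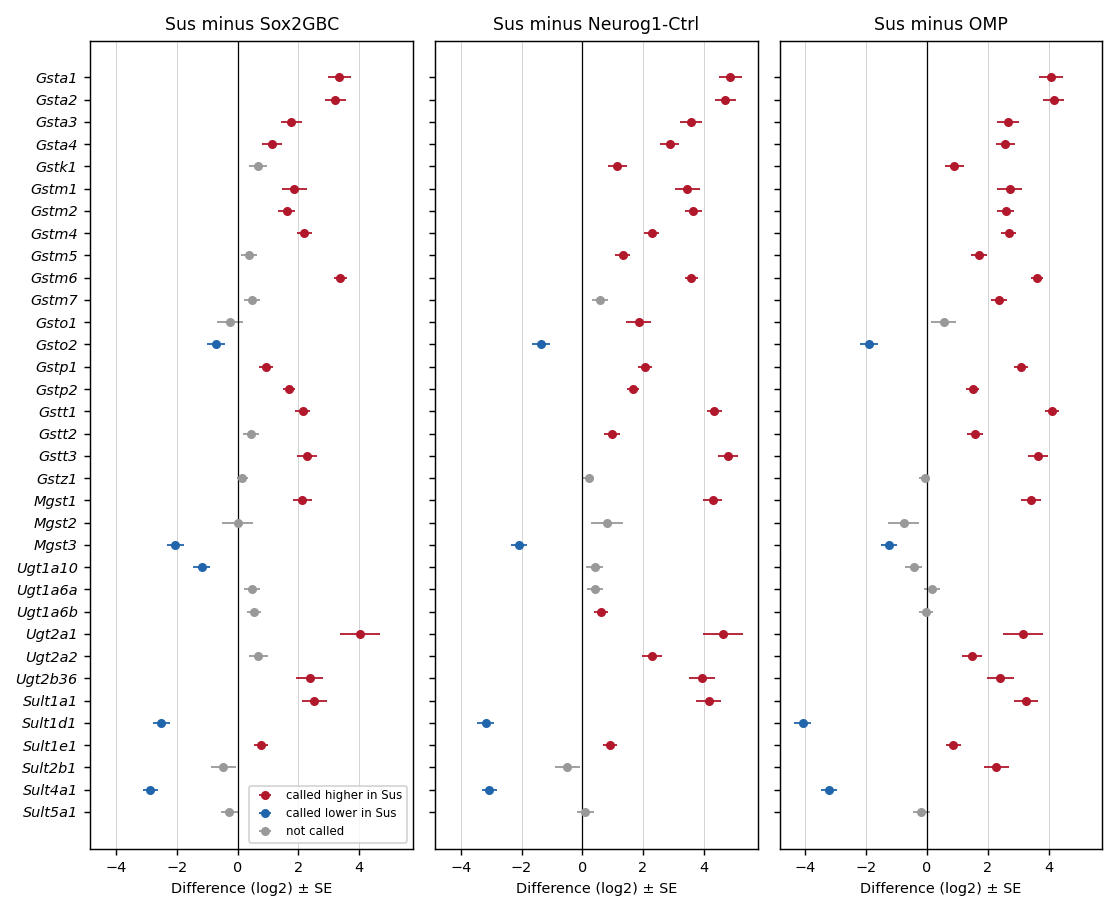
Log2 difference of Sus from Sox2GBC, Neurog1-Ctrl and OMP for the 34 tested members, with standard errors, right of 0 where Sus is higher and coloured where called. For Ugt2a1 the differences are 4.01, 4.63 and 3.15, and for Sult1d1 they are -2.51, -3.18 and -4.09.

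Set against the whole mucosa, Sus cells had more of 20 tested members (23.3% of all genes) and less of 8 (25.3%), with a median of 1.05 against 0.01. All 4 alpha and all 3 theta genes were higher, Gsta1 by 2.95 (1.39 by the other probe), Gsta2 by 2.89, Gstt1 by 2.42 and Gstt3 by 2.35. Gstm6 (2.62, with 1.23 by another probe) and Mgst1 (2.1) followed, and Gstm2 differed by 1.19 ± 0.28 (limma adjusted p = 0.00153). Ugt2a1 was 2.47 ± 0.66 higher (adjusted p = 0.00422) and Ugt2b36 1.64 ± 0.44 higher (adjusted p = 0.00424). Lower in Sus were Sult1d1 (-3.38 ± 0.27, adjusted p = 7.01e-09, with -0.31 by the second probe), Sult4a1 (-2.77, with -0.25 by the second probe), Ugt1a10 (-2.03), Gsto1 (-1.59), Gsto2 (-1.39), Mgst3 (-1.27) and Ugt1a6b (-0.84). Sult5a1, not detected in Sus, was at least 1.44-fold lower there. The calls of Gsta3, Gstm1, Sult1a1, Sult2b1 and Ugt2a2 were lost on leaving out 1 array or another. Among the 18 brighter members, 11 were higher and 4 lower in Sus (22.3% and 28.5% of such genes). Gsto1, Ugt1a10, Sult5a1, Ugt1a6a and Ugt1a6b had their highest unlesioned mean in OM, above all 4 sorts, with Gsto1 at 10, 10.88 and 10.74 in OM. Sult5a1, Ugt1a6a and Ugt1a6b passed the filter only through the OM arrays. Their place here, and the lower calls of Sult5a1 and Ugt1a6b in Sus, are built into that selection. Sus and OM also differ in mouse line.

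By the sort labels, the neuronal series runs from Sox2GBC through Neurog1-Ctrl to OMP. All 4 alpha transferases and Gstm2 were lower in Neurog1-Ctrl than in Sox2GBC. Neurog1-Ctrl against Sox2GBC called 0 members higher (8.02% of all genes; 18 members had an unadjusted p under 0.05 in either direction in limma) and 16 lower (9.09%), with a median of -0.71 against 0. The 16 were Gsta3 (-1.82), Gsta4 (-1.73), Gstt3 (-2.5), Gstt1 (-2.21), Mgst1 (-2.17), Gsto1 (-2.12), Gstm2 (-2.03 ± 0.28, limma adjusted p = 9.52e-05), Ugt1a10 (-1.6), Ugt2a2 (-1.6), Gstm1 (-1.59), Ugt2b36 (-1.57), Gstp1 (-1.14) and Gstm5 (-0.95), besides 3 that were not detected in Neurog1-Ctrl. Of these, Gsta1 was at least 1.5-fold, Sult1a1 at least 1.43-fold and Gsta2 at least 1.27-fold lower there. The Gstm1 call was lost without Neurog1-Ctrl replicate 1 (-1.34, adjusted p = 0.0684) or Sox2GBC replicate 1 (-1.32, adjusted p = 0.0607), and the Gstm5 call without Sox2GBC replicate 2 (-0.69, adjusted p = 0.0907). That of Ugt2b36 was lost without Sox2GBC replicate 1 (-1.32, adjusted p = 0.0841), Sox2GBC replicate 2 (-1.36, adjusted p = 0.078) or Neurog1-Ctrl replicate 1 (-1.28, adjusted p = 0.101). Other probes of Gsta1, Gsta3 and Gstm1 gave 0.04, -0.29 and 0.08. Among the 18 brighter members 0 were higher and 11 lower (7.75% and 7.73% of such genes). Over the same comparison 7 of 7 sustentacular, 8 of 9 Bowman gland and 5 of 5 microvillar markers were lower, with Bowman gland sums of 3341 to 9168 in Neurog1-Ctrl and 37108 to 43545 in Sox2GBC. Horizontal basal markers were lower for 4 of 5, and mature neuron markers higher for 2 of 8. Of the immature neuron markers 0 of 6 were called, with sums of 54110 to 59252 in Neurog1-Ctrl and 50718 to 61713 in Sox2GBC. The 2 sorts were thus not set apart by these immature neuron markers. The part of all these markers in the member differences was not tested. Mouse line differs as well between the 2 groups.

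OMP against Neurog1-Ctrl called 9 members higher (17.9% of all genes) and 4 lower (18.2%), shares that for the members are 26.5% and 11.8%. The higher members were Ugt2b36 (1.52), Gsto1 (1.3), Gstt3 (1.13), Gstm2 (1.05 ± 0.28, limma adjusted p = 0.00617), Sult1d1 (0.91, adjusted p = 0.0119, with 0.13 by the second probe), Mgst1 (0.86) and Ugt1a10 (0.84, with 0.19 by another probe), besides Mgst2 and Ugt1a6b. The last 2 were not detected in Neurog1-Ctrl. Mgst2, detected on 2 OMP arrays, was at least 1.9-fold higher in OMP, and Ugt1a6b, detected on 1, has no fold. Mgst2 was at 8.49, 6.67 and 5.3 in OMP, overlapping with 5.39, 5.12 and 5.21 in Neurog1-Ctrl. Without OMP replicate 1 the calls of Mgst2 (limma adjusted p = 0.188) and Ugt1a6b (adjusted p = 0.129) were lost. The count of higher members was 3 without Neurog1-Ctrl replicate 1 or without OMP replicate 1, and 5 without OMP replicate 2. Among the 18 brighter members 8 were higher and 2 lower (21.3% and 21.5% of such genes). Sult2b1 was at 5.4, 5.65 and 5.68 in OMP, against 8.64, 8.29 and 8.11 in Neurog1-Ctrl, a difference of -2.77 ± 0.41 (adjusted p = 3.78e-05), with -1.93 and -0.9 by other probes. Gstm7 was at 5.69, 5.65 and 5 in OMP, against 7.31, 7.34 and 7.06 in Neurog1-Ctrl, a difference of -1.79 ± 0.26 (adjusted p = 3.61e-05). Gstp1 fell by 1.06 and Mgst3 by 0.83. With median scaling the higher members numbered 3. In this comparison 4 of 5 horizontal basal, 3 of 7 sustentacular and 3 of 9 Bowman gland markers were higher in OMP, with their part in the member differences not tested. In both Sult2b1 and Gstm7 the OMP arrays lay below all Neurog1-Ctrl and all Sox2GBC arrays.

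Over the whole span, OMP against Sox2GBC called 3 members higher (22.7% of all genes) and 15 lower (24.2%), with a median of -0.75 against -0.06. Higher were Sult1d1 (1.57, adjusted p = 8.84e-05, with 0.17 by the second probe), Gsto2 (1.2) and Ugt1a6b. The last has no fold, since it was detected on 1 OMP array and on 0 Sox2GBC arrays. The Ugt1a6b call was lost under several settings, among them cyclic loess (limma adjusted p = 0.0671), the authors' processed values (adjusted p = 0.0697) and median scaling (adjusted p = 0.101). Among the lower were Sult2b1 (-2.76, with -0.85 by another probe), Gstp1 (-2.2), Gstt1 (-1.98), Gstm7 (-1.91), Gsta4 (-1.45), Gstt3 (-1.38), Gstm5 (-1.34) and Mgst1 (-1.3). Among the 18 brighter members 1 was higher and 9 lower (25.1% and 26.7% of such genes). With median scaling the lower members numbered 6. Over the same comparison 5 of 9 Bowman gland, 5 of 5 microvillar and 3 of 7 sustentacular markers were lower in OMP, and their part was not tested. The 3 comparisons of this series share arrays pairwise.

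Removal of the olfactory bulb, which kills the neurons that projected to it and sets off replacement, was followed by few calls among these enzymes. Calls were few over all genes as well, so these low counts are not particular to the members. In Neurog1-OBX against Neurog1-Ctrl limma called 0 of 34 members in either direction (0.194% of all genes higher and 0.202% lower), with 4 at an unadjusted p under 0.05. Those were Mgst2 (adjusted p = 0.334; not detected in Neurog1-Ctrl), Gsta4 (0.88, adjusted p = 0.304), Gstm1 (-0.9, adjusted p = 0.461) and Gstm6 (-0.46, adjusted p = 0.432). Mgst2 was at 6.58, 6.96 and 6.28 in Neurog1-OBX, against 5.39, 5.12 and 5.21 in Neurog1-Ctrl. These arrays did not overlap, and a fit on the 2 groups alone called it (adjusted p = 0.0203).

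In OMP-OBX against OMP limma called 0 members higher (4.24% of all genes) and 1 lower (4.43%), with 6 at an unadjusted p under 0.05. The lower member was Gstm1, at 10.24, 11.01 and 10.86 in OMP-OBX, against 13.18, 12.08 and 11.44 in OMP. The arrays did not overlap, but OMP replicate 1 stood well above the others. The difference was -1.53 ± 0.41 (adjusted p = 0.0223) and a second Gstm1 probe gave -0.02. It was -1.06 (adjusted p = 0.158) without OMP replicate 1 and -1.3 (adjusted p = 0.119) without OMP-OBX replicate 1, and -0.78 (adjusted p = 0.0524) over the mean of probes. With the noise class of the arrays as a block, which leaves 1 OMP array in the class of the 3 OMP-OBX arrays, it was -0.96 (adjusted p = 0.276). Ugt2a1 was at 7.71, 8.04 and 8.19 in OMP-OBX, against 9.6, 9.7 and 8.78 in OMP. These arrays did not overlap, and the difference of -1.38 ± 0.66 was not called (adjusted p = 0.231). In a fit on these 2 groups alone Ugt2a1 was called (adjusted p = 0.0275) and Gstm1 was not (adjusted p = 0.0758). Ugt2b36 (-1.08, adjusted p = 0.146), Ugt2a2 (-0.88, adjusted p = 0.107), Mgst1 (-0.75, adjusted p = 0.168) and Gstm7 (0.62, adjusted p = 0.173) were not called either. The sustentacular marker sum was 40170 to 60267 in OMP-OBX and 61463 to 107557 in OMP, with 1 of 7 markers called lower, while 4 of 6 immature neuron markers were higher, with sums of 23461 to 31350 in OMP-OBX and 5248 to 9254 in OMP. The part of these markers in the member values was not tested.

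**Figure D4:**
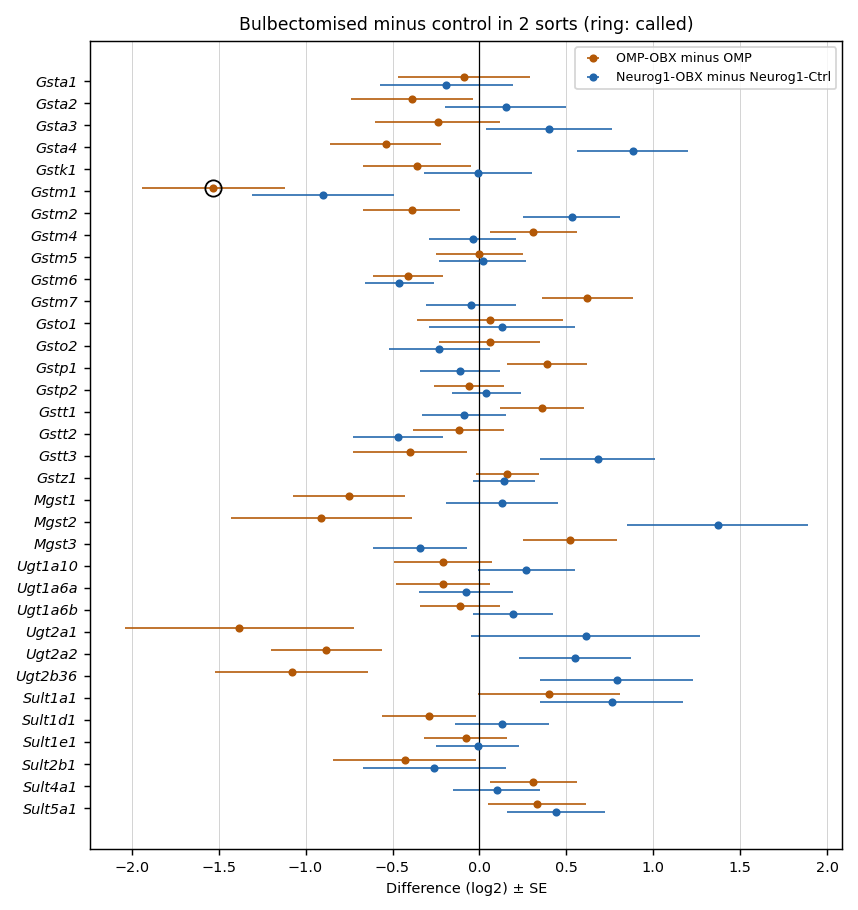
Log2 difference, with standard error, of Neurog1-OBX from Neurog1-Ctrl and of OMP-OBX from OMP for the 34 tested members, right of 0 where the lesioned side is higher. The ring marks Gstm1 at -1.53 in OMP cells, the only call.

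The bulbectomy effect in OMP cells minus that in Neurog1 cells was called for 0 of 34 members by limma (1.27% of all genes higher and 0.708% lower), with 8 at an unadjusted p under 0.05. The largest were Mgst2 (-2.28 ± 0.74, adjusted p = 0.126), Ugt2a1 (-1.99, adjusted p = 0.303), Ugt2b36 (-1.87, adjusted p = 0.132), Ugt2a2 (-1.43, adjusted p = 0.119) and Gsta4 (-1.42, adjusted p = 0.119). With array weights Mgst2, Ugt2a2 and Ugt2b36 were called, and without OMP replicate 3 Mgst2 and Gsta4 were. The OMP and Neurog1 sorts differ in mouse line as well as in cell stage, which cannot be told apart here.

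Against the cell line reference, the mucosa stood out by the Ugt2 genes and by Sult1d1 and Sult4a1. On all 24 arrays 37 members were tested over 12495 genes, and OM against mREF called 18 higher (34.4% of all genes) and 12 lower (31.8%). Ugt2a2 was at least 181-fold, Sult1d1 at least 102-fold, Ugt2b36 at least 85.4-fold and Ugt2a1 at least 19.2-fold higher in OM, since none was detected in mREF. Sult4a1 differed by 7.81, although the second probes of Sult1d1 and Sult4a1 gave 0.5 and 0.26. Sult1a1 was at least 3.68-fold higher, and Mgst3 (2.72), Gsta3 (2.68, with 0.99 by another probe) and Gstm1 (2.49, with -0.39 by another probe) were higher as well. Lower in OM were Mgst2 (-4.76), Gstp2 (-3.13), Gstp1 (-3.1, with -1.4 by another probe), Gsto1 (-2.3) and all 4 tested Ugt1a genes, Ugt1a7c at -3.32 (-1.52 by another probe), Ugt1a6b at -2.88, Ugt1a10 at -2.76 and Ugt1a6a at -2.63. The mREF arrays are repeats of 1 RNA, so their spread is technical.

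Genes that supply or surround these enzymes were counted from lists chosen with earlier results of these data known. Of 11 tested genes of cofactor supply, 5 were higher and 0 lower in Sus than in Sox2GBC, where 23.1% of all genes were higher and 28.8% lower. These percentages apply to the other lists in the same comparison too. The 5 higher genes included Papss2 (1.61), which makes PAPS, and Ugp2 (1.14), which makes UDP-glucose. Gclc, the catalytic subunit of the first step of glutathione synthesis, was not detected in Sox2GBC and at least 1.67-fold higher. The others were the Golgi transporters Slc35a3 (2.42), for nucleotide sugars, and Slc35b2 (0.82), for PAPS. Cytosolic sulfotransferases and glucuronosyltransferases of the endoplasmic reticulum lie outside the Golgi. The list thus also holds Golgi transporters, Slc35b3 among them, whose supply of the members was not tested. Gclm (-0.2), the modifier subunit of that first step, and Gss (0.28), glutathione synthetase, were not called. In Sus against OMP 5 of the 11 were higher and 1, Slc35b3 (-0.68), lower (29.1% and 30.9% of all genes). In Sus against OM 5 were higher and 2 lower (23.3% and 25.3%), Gclm (-0.58) and Slc35b3 (-0.55). In Sus against Neurog1-Ctrl 5 were higher and 0 lower (26% and 33.4%). In Neurog1-Ctrl against Sox2GBC 0 of the 11 were called (8.02% of all genes higher and 9.09% lower). In OMP-OBX against OMP 0 were higher and 1, Papss2, lower (-1.23, limma adjusted p = 0.0179), where 4.24% of all genes were higher and 4.43% lower. Of 9 other conjugating enzymes, 4 were higher in Sus than in Sox2GBC, namely Ugt8a (3.39), As3mt (2.19), Nat2 (1.38) and Nat1, which was not detected in Sox2GBC and at least 1.64-fold higher. The methyltransferases Inmt (-3.11) and Tpmt (-0.96) and the glycine N-acyltransferase Glyat (-0.88) were lower.

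Among 7 tested regulators, Nfe2l2, which activates antioxidant genes, was 1.53 ± 0.42 higher in Sus than in Sox2GBC (limma adjusted p = 0.0045), and Bach1, a repressor at the same elements, was 1.25 higher, with 0 of the 7 lower. Nfe2l2 averaged 8.14 in Sus, 6.61 in Sox2GBC, 7.73 in Neurog1-Ctrl, 9.36 in OMP and 8.92 in OM. It was thus lower in Sus than in OMP (-1.22, adjusted p = 0.0164) and not called against Neurog1-Ctrl (0.41) or OM (-0.78, adjusted p = 0.133). Keap1 (0.26), the inhibitor of the Nfe2l2 protein, and Arnt (0.67), a partner of the aryl hydrocarbon receptor, were not called. Of 9 known Nfe2l2 targets outside the conjugating families, 6 were higher and 0 lower in Sus than in Sox2GBC, led by Osgin1 (3.89), Txnrd1 (2.62) and Srxn1 (1.12). Nqo1 (-0.29) and Hmox1 (0.18) were not called. In other comparisons the targets went both ways. Against OMP 5 were higher and 4 lower (29.1% and 30.9% of all genes), the lower ones being Nqo1 (-3.6), Srxn1 (-1.38), Hmox1 (-1.17) and Me1, which was not detected in Sus and at least 3.81-fold lower. Against OM 5 were higher and 3 lower (23.3% and 25.3%), with Nqo1 at -2.68, Srxn1 at -1 and Hmox1 at -0.91. Against Neurog1-Ctrl 5 were higher and 1, Nqo1 (-3.04), lower (26% and 33.4%). Of 6 efflux and deconjugation genes, the exporters Abcc3 (3.19), Abcc4 (1.04) and Abcc1 (at least 1.4-fold, not detected in Sox2GBC) and the glucuronidase Gusb (2.35) were higher in Sus than in Sox2GBC. Slco2b1 was called lower, with no fold, since it was detected on 0 Sus arrays and on 1 Sox2GBC array.

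Many members lie in tandem on the chromosome. Taking neighbours with up to 3 other coding genes between them in the RefSeq order, 47 of the 58 formed 10 clusters. On chromosome 5, 13 members follow each other with 0 other coding genes between them, in the order Ugt2b34, Ugt2b1, Ugt2b35, Ugt2b36, Ugt2b5, Ugt2b37, Ugt2a3, Ugt2b38, Ugt2a1, Ugt2a2, Sult1b1, Sult1d1 and Sult1e1. Of these, 5 were tested. Ugt2b36 and Ugt2a1 were higher in Sus than in all 3 sorts, and so was Sult1e1, which passed the filter only through Sus. Ugt2a2 was not called against Sox2GBC. Sult1d1, between Sult1b1 and Sult1e1, was lower in Sus than in all 3. Its dim second probe gave 0.05 against Sox2GBC, 0.01 against Neurog1-Ctrl and -0.12 against OMP. On chromosome 3, 6 of 7 mu genes were tested and 4, Gstm6, Gstm2, Gstm1 and Gstm4, were higher than in all 3 sorts, while their neighbours Gstm5 and Gstm7 at 1 end of the row were not called against Sox2GBC.

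**Figure D5:**
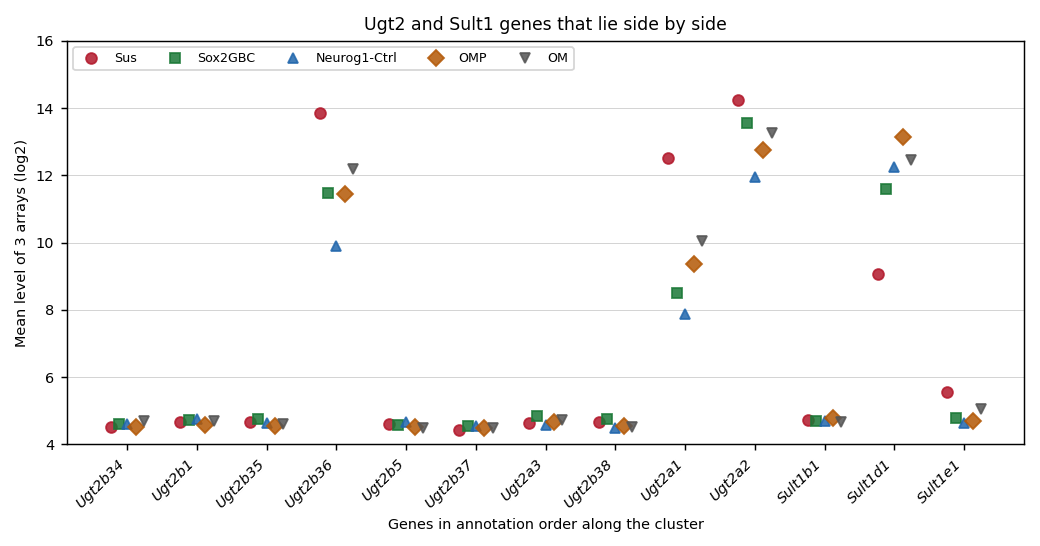
Mean log2 level of the 13 genes of the chromosome 5 cluster in their order along the chromosome (not to scale), for Sus, Sox2GBC, Neurog1-Ctrl, OMP and OM. The 8 genes not tested lie along the bottom, and Sult1d1 has its lowest mean in Sus (9.06) and its highest in OMP (13.15).

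The 24 members that were not tested were mostly dark. On the 21 mucosa arrays 20 of them were detected on 0 arrays, Gstp3 on 2, and Sult1c1, Sult2a2 and Ugt1a7c on 1 each. The 20 were Gstm3, Gstt4, Sult1b1, Sult1c2, Sult2a1, Sult2a6, Sult2a8, Sult3a1, Sult3a2, Ugt1a1, Ugt1a2, Ugt1a5, Ugt1a9, Ugt2a3, Ugt2b1, Ugt2b34, Ugt2b35, Ugt2b37, Ugt2b38 and Ugt2b5. A level below detection here says only that the probe gave no signal above the negative controls.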

How the data were processed

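Per the labels' protocols, column-purified RNA was labelled as biotin cRNA and hybridised to Illumina bead arrays, 1 for each of 24 samples. The deposited table holds a background-subtracted intensity from GenomeStudio, named in the submitters' processing notes, and, also deposited, the p-value of detection per probe and sample. The authors' processed values, also linear intensities, have column medians of 120.7 to 121 and were used as an alternative. The array column of OMP replicate 3 carries another number in its name.

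From the deposited intensities, normexp correction by detection p-values (offset 16), quantile normalization and log2 were applied with limma 3.58.1 in R 4.3.3, and no log2 values were taken from the authors. A gene was read by its brightest probe, and other probes are given for many of the named values. Of the probes, 34885 carry 1 gene, 18 several and 10378 none. Linear models with 14 residual degrees of freedom were fitted to the 21 mucosa arrays (11870 genes), or to all 24 (12495 genes) for OM against mREF, with adjustment over all genes. A bound (at least N-fold) replaces a fold where no array of the lower group detected the probe: per array it takes the higher of the lowest signal among detected probes and the probe's own. No fold is given where this bound is under 1. The fit was tested on simulated data.

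The members and gene lists were chosen with earlier results of these data known. Values in every array are given for Ugt2a1, Gstm2, Sult1d1, up to 4 called members per family and members that bulbectomy called, and a few others were named after their values were seen. Alternatives are listed with their effect at the end. Figures were drawn with matplotlib 3.10.9. The 3 arrays per group limit the precision, and arrays give no count-based depth.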

Additional observations from a re-analysis of the deposited data

How the results depend on the processing

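Of 283 differences of called or named members recomputed under the settings below, 0 changed direction. Gsta1 in OM against mREF, not called at 0.1 and not among the 283, was -1.63 with the mean of all probes (limma adjusted p = 1.36e-07). Counts were kept within 1.5 times of the values in the text under no background correction, the authors' processed values, cyclic loess, no filter and a stricter filter. Replicate numbers were not treated as pairs. No comparison had all 3 correlations of same-numbered deviations above 0.1 (Sus and Sox2GBC had 0.06, 0 and 0.03). That rule cannot exclude a link among some arrays only. The replicate 1 arrays of OM, OMP, Sus and mREF formed the lowest noise class. Their replicate 1 correlation was 0.23 in Sus against OMP, 0.15 in Sus against OM and 0.35 in OM against mREF. With the replicate block 4 of the 283 differences lost their call, and the count of members lower in OMP-OBX was unchanged (1, Gstm1). Members higher in Neurog1-Ctrl than in Sox2GBC numbered 2 with median scaling (Gsto2, Sult1d1), 1 with the mean of all probes (Gsto2), 1 with the compared groups only (Sult1d1), 2 with array weights (Gsto2, Sult1d1), 1 without the lowest noise class (Sult1d1) and 0 to 1 on leaving out 1 array. Members higher in OMP than in Neurog1-Ctrl numbered 3 with median scaling, 5 without the lowest noise class and 3 to 11 on leaving out 1 array. Members lower in OMP than in Sox2GBC numbered 6 with median scaling and 10 to 17 on leaving out 1 array. Members lower in OMP-OBX than in OMP numbered 0 with the mean of all probes, 0 with the noise class block, 0 without the lowest noise class and 0 to 3 on leaving out 1 array (Gstm1, Mgst2 and Ugt2a2 without OMP replicate 3). With the compared groups only, 1 member was higher in Neurog1-OBX (Mgst2). The difference of the bulbectomy effects had 3 negative calls with array weights and 0 to 2 on leaving out 1 array. Among genes above the median mean level, which hold fewer members by construction, Sus had 10 higher and 3 lower members against Sox2GBC, 14 higher against Neurog1-Ctrl, 13 higher against OMP, and 11 higher and 4 lower against OM. There OMP had 2 lower members against Neurog1-Ctrl, and 1 higher and 9 lower against Sox2GBC. The causes were not tested. Median scaling shifted the median of all genes by -0.4 for Sus against Neurog1-Ctrl, -0.21 against OMP, -0.16 against OM and 0.38 for Neurog1-Ctrl against Sox2GBC, and the share of higher calls among all calls was then 33.7%, 39.6%, 34.4% and 77%, against 43.8%, 48.5%, 48% and 46.9%. It shifted OMP against Sox2GBC by 0.23, Neurog1-OBX by -0.21 and OMP-OBX by -0.19, with shares of 70.6%, 34.7% and 22.9%, against 48.4%, 48.9% and 48.9%. For the difference of bulbectomy effects the share was 44.7% with median scaling and 48.2% with cyclic loess, against 64.3%. Cyclic loess shifted OMP against Neurog1-Ctrl by 0.14, with 60.4% against 49.7%, and gave 35.4% for Neurog1-Ctrl against Sox2GBC. Within a noise class of arrays the called members kept their direction, except Sult2b1 in Sus against OM (27 of 28 did so).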
